A study of Mus musculus with 12 samples.

Results

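The midbrain of embryonic day 15 (E15) mouse embryos was set against the telencephalon of the same age, represented by cortex, hippocampus and ventral telencephalon. These 4 arrays, of 12 in the series, measured total RNA on single-colour Agilent mouse expression arrays, with 1 array for each tissue. The embryos carry the strain label Sv129s6 and were of mixed sex, with no transgene, deletion or treatment named in the labels. RNA from 3 sets of experiments went into each sample, and the 4 arrays lay on the same slide. The other 8 arrays hold neurons grown for 16 days from mouse embryonic stem cells, 2 arrays for each of 4 schedules of WNT and BMP pathway inhibitors and a WNT agonist. Because each tissue has 1 array, no spread between embryos is known and none of the differences below has a replicate check or a p-value.

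The telencephalon and the midbrain form from neighbouring parts of the neural tube, and each is marked by its own transcription factors. In the telencephalon the dorsal part (pallium) makes glutamatergic cortical neurons and the ventral part (subpallium) makes GABAergic ones. The engrailed genes, Otx2 and the Pax3/Pax7 pair pattern the midbrain, whose GABAergic neurons depend on Gata2, Gata3 and Tal factors and whose ventral side gives rise to dopaminergic neurons under Foxa1 and Foxa2. At this age the brain still contains dividing progenitors beside young neurons, blood vessels and its outer covering, the meninges.

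A gene was counted as higher in the midbrain when its value lay at least 1 log2 unit (2-fold) above cortex, hippocampus and ventral telencephalon alike and was well above background in the midbrain. It was counted as lower when it lay at least 1 log2 unit below all 3 and was well above background in all 3. All values are log2 signals relative to the 75th percentile of their array, so that 0 marks the 75th percentile, and each gene is represented by its brightest passing probe. Of 28171 genes and other transcripts measured, 1405 were higher (4.99%) and 318 were lower (1.13%). Among the 16563 with a gene symbol, 925 (5.58%) were higher and 237 (1.43%) lower. The rule asks less of the higher genes than of the lower ones, since only the midbrain must be above background: 680 of the 1405 were well above background in the midbrain alone. On the 22241 genes well above background on all 4 arrays the counts were 491 (2.21%) higher and 297 (1.34%) lower. Of all counted genes 81.5% were higher, a share that became 70.8% (1165 higher and 481 lower) when arrays were scaled to their median, which moved the median difference of all genes to -0.19. With normexp background correction and quantile normalization 480 genes were higher and 183 lower, and the authors' deposited table gave counts of 843 and 276.

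Higher genes, 1405 against 318 lower ones in all, also outnumbered lower genes at wider limits, with dim values used as read. At 2 log2 units, 400 genes were higher and 54 lower, and at 4 log2 units 74 were higher and 18 lower. The median difference between midbrain and the mean of the telencephalic arrays was -0.04 over all genes measured. Just inside the limit lay Spock3, at -0.82 in midbrain against -1.82 in ventral telencephalon, its nearest array, and Efnb1, at 2.68 against 3.69. Just outside lay Slc4a10, at 0.25 against -0.75, and Ccna2, at 1.21 against 2.21.

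**Figure D1:**
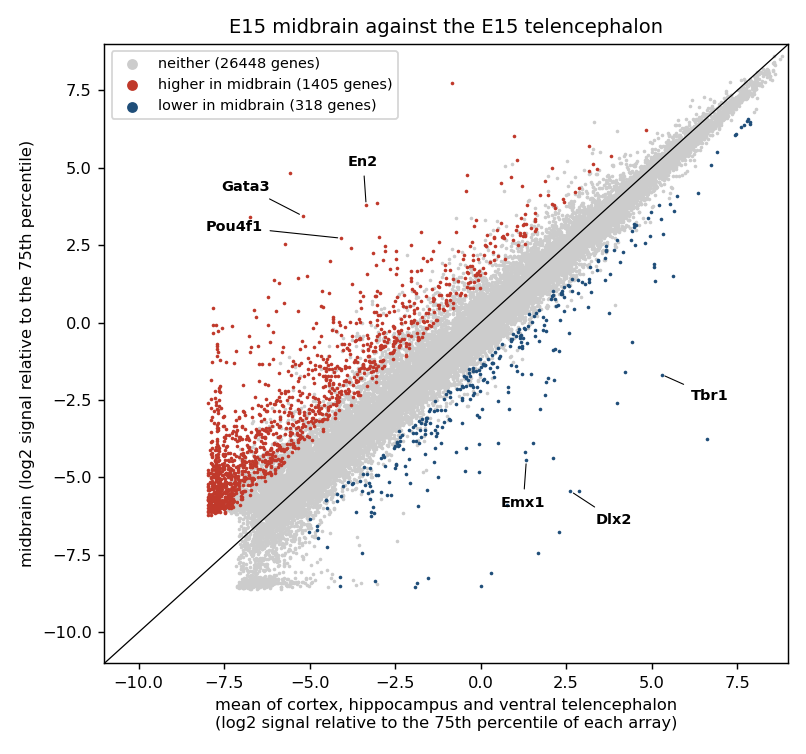
Midbrain value of each of the 28171 genes (vertical) against the mean of cortex, hippocampus and ventral telencephalon (horizontal), both as log2 signal relative to the 75th percentile of the array; red points are the 1405 genes higher in midbrain than in all 3, blue points the 318 lower, and the line marks equal values. Gata3, En2 and Pou4f1 lie far above the line, and Dlx2, Tbr1 and Emx1 far below it.

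The ventral telencephalon stood nearest to the midbrain. Over the 22241 genes above background everywhere, 6.57% differed by at least 1 log2 unit between midbrain and ventral telencephalon, against 15.4% between midbrain and hippocampus and 15.8% between midbrain and cortex. Pearson's r across those genes was 0.979, 0.958 and 0.952 in the same order, as a description over genes that share arrays and labelling. The ventral telencephalon was the closest telencephalic array for 312 of the 491 higher genes and for 225 of the 318 lower ones. Without that array the counts would have been 2727 higher and 927 lower.

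**Figure D2:**
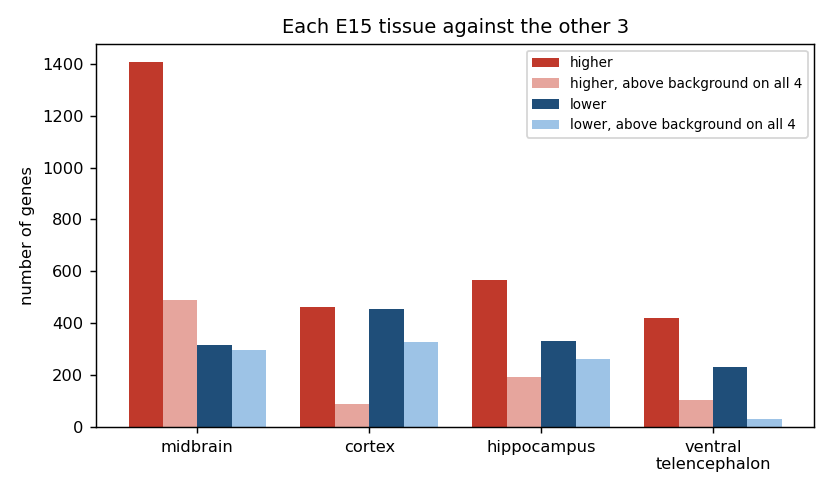
Number of genes at least 1 log2 unit higher (red) or lower (blue) in each E15 tissue than in each of the other 3; pale bars hold only genes well above background on all 4 arrays. The midbrain has the most higher genes (1405, or 491 of those above background on all 4), while its 318 lower genes fall short of the 455 of the cortex.

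The same rule applied to each telencephalic tissue in turn found 463 genes higher and 455 lower in cortex, 569 and 333 in hippocampus, and 422 and 233 in ventral telencephalon. Restricted to genes above background on all 4 arrays, the midbrain had 491 higher genes, against 193 in hippocampus and 90 in cortex. The arrays were not equally bright: 70.5% of spots were well above background on the midbrain array, 66.8% on cortex, 65.1% on hippocampus and 59.1% on ventral telencephalon, and the part of this in the 680 genes seen in midbrain alone was not tested. For scale, 6.94% of genes differed by at least 1 log2 unit between cortex and hippocampus. The share was 8.40% between cortex and ventral telencephalon and 10.4% between hippocampus and ventral telencephalon. The 2 arrays of a culture group, which lay on different slides, differed by as much in 6.46% to 15.1% of genes. Those culture shares were taken after removing the median difference, which was not done for the tissues, and on a somewhat different set of genes. Repeated spots of a probe on an embryonic array had a median SD of 0.065 to 0.087 log2 units.

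Genes of the brain's coverings were also higher in the midbrain sample. Of 18 genes of meninges and mesenchyme measured, 13 were higher in midbrain and 0 lower, with a median difference of 2.96. Their summed signal was 6.97 on the log2 scale in midbrain, 4.86 in hippocampus, 2.72 in cortex and 2.14 in ventral telencephalon. The collagen gene Col1a2 read 4.41 in midbrain against 0.64 in cortex, 2.82 in hippocampus and 0.18 in ventral telencephalon. Ptgds, a prostaglandin synthase of the arachnoid, read 6.04 against 0.51, 2.66 and -0.21, and the transporter gene Slc6a13 read 2.31 against -4.18, -0.12 and -4.12. In these whole-tissue samples more cells of a type and more RNA per cell cannot be told apart. Of 13 markers of red blood cells and 13 of endothelium, 0 in either list were counted, where 5.58% of named genes were higher. Lists of 13 are too short to tell 0 from that share. In each list 10 of 13 genes lay above the telencephalic mean. The median differences were 0.25 for red blood cells and 0.34 for endothelium, against -0.04 for all genes. The erythroid gene Alas2 read 1.87 in midbrain against 1.31, 1.90 and 1.33.

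Some differences were in probes without a gene name, which the array identifies only by an interval of the mouse genome (build mm9). Of 3924 such intervals measured, 130 (3.31%) were higher in midbrain and 27 (0.688%) lower. The probes of 2 higher intervals are shown because they lie near genes described here and the array gives them no name of their own. The first, on the reverse strand, was 21.3-fold higher in midbrain than in the nearest telencephalic array, and it spans the probe of the long non-coding RNA Crnde, 0.071 kb away on the same strand, next to Irx5. The second, on the forward strand 6.79 kb from the probe of Lmx1b, was 12.1-fold higher. Each 60-base probe is given 5′ to 3′.
chr8:94849929-94870274: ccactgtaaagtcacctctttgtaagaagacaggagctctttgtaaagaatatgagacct
chr2:33500594-33501874: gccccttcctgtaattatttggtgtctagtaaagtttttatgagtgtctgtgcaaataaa

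The interval that spans Crnde read 0.19 in midbrain and -4.32, -4.22 and -4.42 in cortex, hippocampus and ventral telencephalon. Crnde's own probe read 0.13 against -3.98, -3.93 and -5.06, so both may read the same transcript and are not counted as separate evidence. The interval near Lmx1b read 2.07 against -1.52, -1.91 and -1.59, while Lmx1b itself, a midbrain and isthmus homeobox gene, read -2.25 against -2.06, -2.40 and -2.84 and was counted in neither direction. Both intervals were well above background on all 4 arrays, and in both the midbrain value lay above all 3 telencephalic ones.

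Genes that pattern the midbrain were higher there as a group. Of 20 midbrain and isthmus factors measured, 13 were higher in midbrain and 0 lower, with a median difference of 4.45 against -0.04 for all genes, where 5.58% of named genes were higher. This and the other lists were chosen with earlier results of these data known, so their shares are descriptions and not tests. En2, an engrailed homeobox gene of midbrain and anterior hindbrain, read 3.78 in midbrain against -2.89 in cortex, -3.37 in hippocampus and -3.77 in ventral telencephalon, a 102-fold gap to the nearest. Its relative En1 read -2.22 in midbrain and was not well above background in the telencephalon, so that its gap is at least 7.35-fold. Here and below, "at least" marks a fold in which the dim side was raised to the lowest signal its array measured well above background. Both engrailed genes thus separated the midbrain from every telencephalic array.

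Paired-box genes of the midbrain and isthmus list were counted in part. Pax3 was 47.2-fold higher (1.02 against -4.59, -4.54 and -4.81), and Pax7 was at least 45.9-fold higher, at 0.43. Pax8 was also counted as higher, at -2.40 and above background in midbrain alone. Pax2 (-4.82 against -4.92, -5.46 and -5.27) and Pax5 (-5.88, above background in midbrain alone) were not counted. Otx2, which marks forebrain and midbrain and is also made by choroid plexus, was 7.69-fold higher: it read 4.26 in midbrain, 1.32 in hippocampus, 0.92 in ventral telencephalon and -3.55 in cortex. Choroid plexus genes, of which 2 of 10 were counted as higher (Otx2 and Kl) and 0 as lower, had a summed signal of 5.39 in midbrain and 5.21 in hippocampus, against 2.34 in ventral telencephalon and -1.12 in cortex. Their part in the Otx2 reading was not tested. Dmbx1, a homeobox gene of the dorsal midbrain, was 49.0-fold higher, and Mab21l1 and Mab21l2 were counted as well.

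All 6 Iroquois genes measured (Irx1 to Irx6), homeobox genes of the neural tube behind the telencephalon, were higher in midbrain. Irx1 read 3.85 against -3.45, -3.96 and -1.71, a 47.2-fold gap, and Irx3 read 2.40 against -4.25, -3.82 and -3.28, a 51.5-fold gap. Irx2 was 163-fold higher, Irx5 at least 27.2-fold and Irx6 at least 61.0-fold. Ventral telencephalon held the highest telencephalic reading of Irx1, Irx2 and Irx3. By contrast the signals of the isthmus, the organizing boundary behind the midbrain, were mostly not counted. In that list 1 of 13 genes measured was higher (7.69%), near the 5.58% of named genes. It was the FGF modulator Cnpy1 (at least 1.17-fold, above background in midbrain alone). The organizer ligand Fgf8 read -2.83 in midbrain against -2.62, -2.53 and -2.56, and Wnt1 read 0.39 against 0.49, 0.17 and 0.13.

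**Figure D3:**
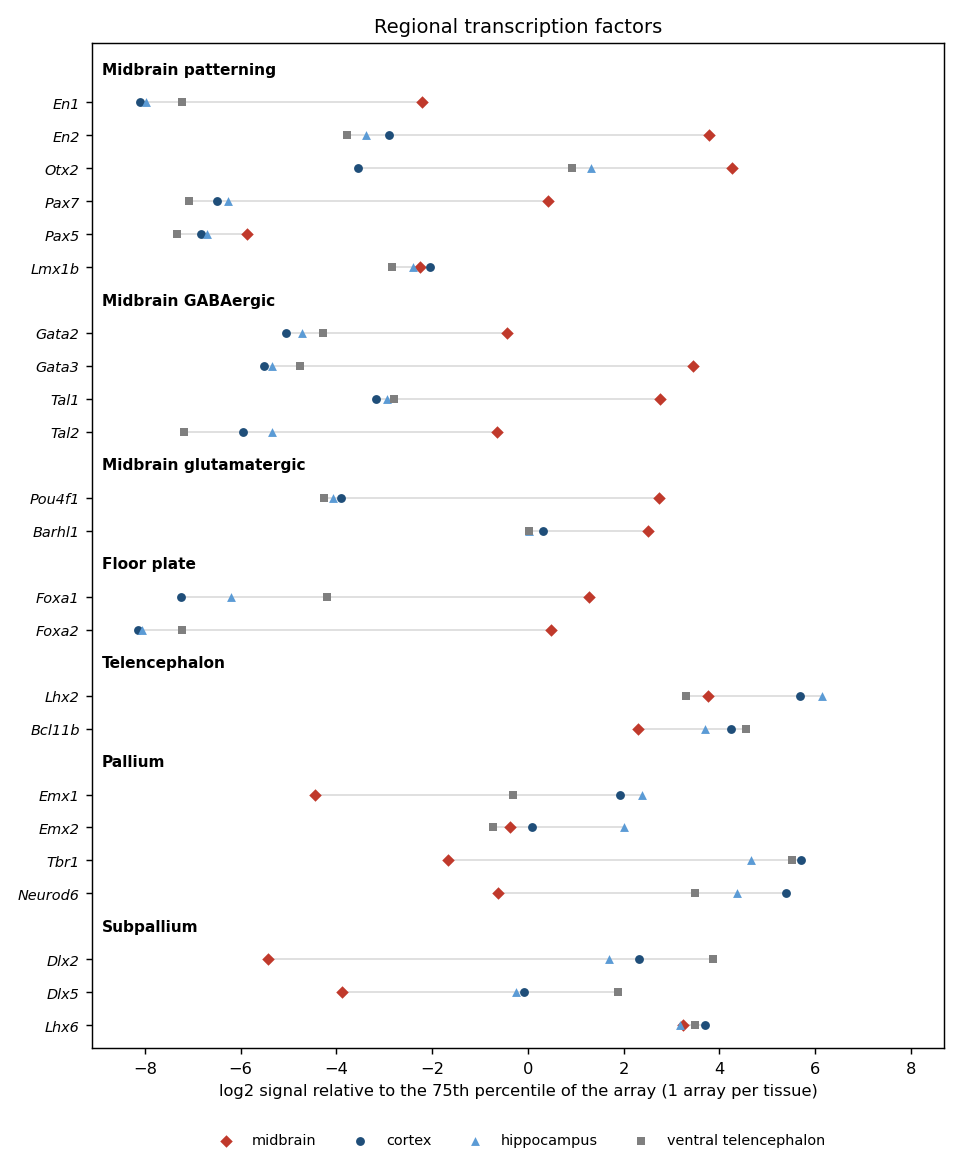
Value of regional transcription factors on each of the 4 arrays, as log2 signal relative to the 75th percentile of the array; each row is a gene, grouped by the region or neuron class it is known for, and the grey line spans its 4 values. Red diamonds (midbrain) lie at the right for the engrailed, GATA, TAL, POU4 and FOXA genes and at the left for Emx1, Tbr1, Neurod6, Dlx2 and Dlx5, while Lmx1b, Emx2 and Lhx6 do not separate.

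The selectors of midbrain GABAergic neurons showed some of the widest gaps. Of 11 measured, 9 were higher and 0 lower, with a median difference of 3.53. Gata3 read 3.45 in midbrain against -5.51 in cortex, -5.34 in hippocampus and -4.76 in ventral telencephalon, a 295-fold gap. Tal1, which acts with GATA factors, was 47.4-fold higher (2.76 against -3.17, -2.94 and -2.80), Gata2 was 14.3-fold higher (-0.44 against -5.04, -4.71 and -4.28) and Tal2, at -0.64, was also higher, with hippocampus nearest at -5.36 and cortex and ventral telencephalon not well above background. The homeobox genes Nkx6-1 (16.3-fold), Lhx1 (5.36-fold) and Nkx2-2 (2.57-fold) were also higher. The size depended on the probe, though both passing probes of Lhx1 and of Nkx2-2 were counted. Midbrain minus the telencephalic mean was 3.53 on the Lhx1 probe used and 1.96 on the other, and 1.63 and 4.67 for Nkx2-2. The 2 members that were not counted were the GATA cofactors Zfpm1, at 1.55 against a highest telencephalic value of 0.94, and Zfpm2, which hippocampus exceeded.

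While these selectors differed, the enzymes that make GABA did not set the midbrain apart from the subpallium. Gad1 read 3.47 in midbrain and 3.45 in ventral telencephalon, against 0.79 in cortex and 0.71 in hippocampus. Gad2 (2.69 and 3.27 against 0.99 and 0.61) and the vesicular GABA transporter gene Slc32a1 (5.17 and 5.49 against 3.44 and 3.41) had the same order. Midbrain and ventral telencephalon were thus the 2 high tissues for each gene.

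Factors of midbrain glutamatergic neurons, many of the tectum, were counted most completely. Of 16 measured, 14 were higher, 0 were lower and the median difference was 4.68. Pou4f1 (also called Brn3a) read 2.73 in midbrain against -3.91, -4.07 and -4.25, a 99.4-fold gap. Its relative Pou4f2, known from the retinal ganglion cells and the tectum, read 3.41 and was at least 363-fold higher, and Pou4f3 was at least 14.7-fold higher. Tfap2b, an AP-2 factor, was 717-fold higher (4.84 against -4.65, -5.96 and -6.14), with the last 2 not well above background. Its neighbour on chromosome 1, Tfap2d, and Tfap2a (at least 93.9-fold) were also higher, while Tfap2c was 29.8-fold lower in midbrain (-4.38 against 2.57, 3.27 and 0.51). The AP-2 family therefore lay on both sides. Both passing probes of Tfap2a were counted, with midbrain 6.80 log2 units above the telencephalic mean on the probe used and 2.24 on the other. Pou4f1 is also a gene of peripheral ganglia: of 11 neural crest and ganglion genes 5 were higher, among them Pou4f1, Prph, Foxd3 and Avil, and 0 lower, and their summed signal was 3.76 in midbrain against 0.91, 0.79 and 2.79. Defining genes of that list were not counted, with the glial factor Sox10 at -0.10 in midbrain and -0.12 in ventral telencephalon, and the part of such cells in these readings was not tested.

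Other members of the midbrain glutamatergic list were Barhl1 (4.58-fold), Ebf2, Ebf3 and Lhx9, whose values in hippocampus or ventral telencephalon were also well above background. The 2 passing probes of Barhl1 were both counted but differed in size. Midbrain lay 2.39 log2 units above the telencephalic mean on the probe used and 9.80 on the other. Ebf3 read 5.24 in midbrain against 0.39, 1.58 and 1.21. Lhx9, a LIM homeobox gene also used in thalamus, read 3.31 against -2.31, 1.66 and 0.21. The diencephalon and thalamus list, of which 19 genes were measured, had 9 higher and 0 lower. These included Dbx1 (71.4-fold; 1.98 against -4.18, -4.72 and -4.32), Foxb1 (20.3-fold) and Rora (5.15-fold, on 1 of its 2 passing probes). Gbx2, a thalamic and hindbrain homeobox gene, was higher in ventral telencephalon (-0.38) than in midbrain (-1.54).

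Promoters of regulators from each side are shown with every CG dinucleotide in capitals, because these genes carry the contrast and their proximal sequence can be compared. Each is the 250 bases before the annotated start, 5′ to 3′ on the gene's strand, from RefSeq on build GRCm38.p6. Gata3 (chr2:9878601-9878850, reverse strand) and Pou4f1 (chr14:104468000-104468249, reverse strand) were higher in midbrain. Dlx2 (chr2:71546755-71547004, reverse strand) and Emx1 (chr6:85187681-85187930, forward strand) were lower.
Gata3: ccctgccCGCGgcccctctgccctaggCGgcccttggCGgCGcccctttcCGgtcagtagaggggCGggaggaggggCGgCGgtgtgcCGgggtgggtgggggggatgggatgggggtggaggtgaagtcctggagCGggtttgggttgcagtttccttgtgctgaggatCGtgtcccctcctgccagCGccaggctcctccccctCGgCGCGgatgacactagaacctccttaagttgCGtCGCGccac
Pou4f1: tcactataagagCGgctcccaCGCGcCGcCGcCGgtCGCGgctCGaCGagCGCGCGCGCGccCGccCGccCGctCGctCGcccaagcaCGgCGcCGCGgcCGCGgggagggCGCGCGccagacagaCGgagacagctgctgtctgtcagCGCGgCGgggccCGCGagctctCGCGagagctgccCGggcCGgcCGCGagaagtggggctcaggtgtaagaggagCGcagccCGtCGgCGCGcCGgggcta
Dlx2: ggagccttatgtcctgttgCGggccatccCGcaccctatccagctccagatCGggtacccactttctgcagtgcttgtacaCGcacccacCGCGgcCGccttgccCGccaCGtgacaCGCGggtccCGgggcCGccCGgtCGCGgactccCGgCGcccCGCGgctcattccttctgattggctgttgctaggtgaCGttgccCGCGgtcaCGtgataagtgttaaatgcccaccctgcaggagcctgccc
Emx1: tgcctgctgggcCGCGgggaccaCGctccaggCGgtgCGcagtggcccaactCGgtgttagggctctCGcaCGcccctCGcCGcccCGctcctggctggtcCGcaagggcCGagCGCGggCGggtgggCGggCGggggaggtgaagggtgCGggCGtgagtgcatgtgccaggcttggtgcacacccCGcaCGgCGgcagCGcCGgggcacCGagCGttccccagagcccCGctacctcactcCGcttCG

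The 4 windows hold 19 (Gata3), 47 (Pou4f1), 24 (Dlx2) and 30 (Emx1) CG pairs. Over all 27025 genes in the promoter table the median was 6, with quartiles of 2 and 16. All 4 regulators thus had CG-rich windows, on both sides of the contrast. The table covered 75.5% of the named higher genes and 77.6% of the named lower genes, too few for a comparison of the sets.

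Genes of dopaminergic neurons, which the ventral midbrain contains, were higher in 10 of 18 cases and lower in 0, with a median difference of 2.41. Th, the rate-limiting enzyme of catecholamine synthesis, read 2.27 in midbrain against 0.18 in cortex, 0.15 in hippocampus and 0.77 in ventral telencephalon, a 2.84-fold gap. The dopamine transporter gene Slc6a3 read 0.63 against -6.48, -6.43 and -4.32, a 30.9-fold gap, and Ddc, which makes dopamine from L-DOPA, was 7.49-fold higher. Aldh1a1, a retinaldehyde dehydrogenase of a subset of these neurons, read 2.24 against -3.84, -2.34 and -3.25 (23.9-fold). The forkhead factors Foxa1 (44.3-fold; 1.27 against -7.26, -6.21 and -4.20) and Foxa2 (at least 47.9-fold, at 0.49) were higher too, as was Pitx3 (-0.92 against -3.05, -3.16 and -3.25). Nr4a2, a nuclear receptor these neurons need, did not follow: it read 2.33 in midbrain but 3.36 in cortex and 2.81 in ventral telencephalon. Lmx1a read 0.46 in midbrain and 0.21 in hippocampus, against -4.41 in cortex and -4.55 in ventral telencephalon.

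Some genes of noradrenergic and serotonergic neurons, classes that lie mostly behind the midbrain, were higher in the midbrain sample. Dbh, which turns dopamine into noradrenaline, was 41.4-fold higher than in hippocampus, its nearest array, at 0.37 in midbrain, with cortex and ventral telencephalon not well above background. The noradrenaline transporter gene Slc6a2 was at least 21.4-fold higher, and the homeobox gene Phox2a, which these neurons and some motor neurons use, at least 13.7-fold. These 3 genes were picked by name and not from a list of noradrenergic genes. Of 13 cholinergic and motor neuron genes measured, 4 were higher and 0 lower. The acetylcholine-synthesising enzyme gene Chat (-1.41 against -1.60, -1.82 and -2.11) was not counted, and the motor neuron factor Isl1 was highest in ventral telencephalon (1.85, against -2.73 in midbrain).

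Of 8 serotonergic genes measured, 5 were higher and 0 lower. The list includes Tph2, the enzyme of serotonin synthesis in neurons (-2.45, at least 6.28-fold), the serotonin transporter gene Slc6a4 (0.00 against -4.74, -3.63 and -6.02) and the selector Fev (-1.96 against -4.20, -4.69 and -4.38). Gata3, which is also on the midbrain GABAergic list, and Slc22a3 (-6.08) were counted as well. The Slc22a3 signal lay below the lowest well-above-background signal of the ventral telencephalon array, so it has no fold. Hox genes, which mark hindbrain and spinal cord, were low but present. Of 22 listed, 13 were measured, 8 of them higher in midbrain and 0 lower. Hoxa2 (-3.41) and Hoxa3 (-2.64) were well above background in midbrain alone, at least 3.21-fold and at least 5.47-fold above the telencephalon. For Hoxb4 (-5.71) and Hoxd3 (-5.91) the midbrain signal lay below the lowest well-above-background signal of the ventral telencephalon array, so no fold is given. With dim values raised in this way 5 Hox genes were still counted, and 0 were on the genes above background on all 4 arrays. The hindbrain and cerebellar factors Atoh1 (at least 18.3-fold) and Ptf1a (at least 5.27-fold) were higher as well. How much of these readings comes from tissue behind the isthmus was not tested.

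Floor plate genes gave a mixed picture, with 5 of 12 higher and 1 lower. Shh, the ventral midline morphogen, read -3.39 in midbrain and -3.49 in ventral telencephalon and was not well above background in cortex or hippocampus. Netrin 1 (Ntn1), a guidance cue of the midline, read 1.47 and 1.39 in the same tissues against -3.84 and -0.91. Midbrain and ventral telencephalon were again the high pair for these 2 secreted signals.

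**Figure D4:**
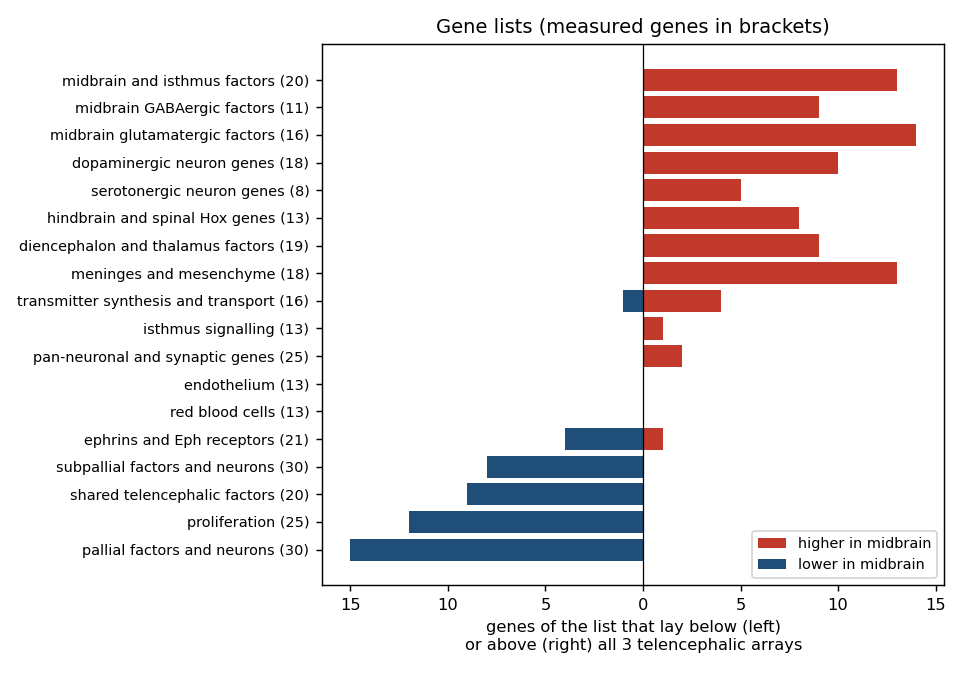
Number of measured genes in each list that lay at least 1 log2 unit above (red, right) or below (blue, left) all 3 telencephalic arrays; the number of genes measured is in brackets, and 5.58% of all named genes were higher and 1.43% lower. Midbrain lists and meninges lie to the right, pallial, telencephalic and proliferation lists to the left, and red blood cells and endothelium have none. The lists were chosen with earlier results of these data known.

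On the lower side stood the genes that define the telencephalon. Of 20 shared telencephalic factors measured, 9 were lower in midbrain and 0 higher, where 1.43% of named genes were lower, and the median difference was -1.33. Fezf2, a selector of deep-layer projection neurons, was at least 118-fold lower, with 3.22, 3.04 and 0.64 in the telencephalon. The zinc finger genes Bcl11b (2.64-fold; 2.29 against 4.24, 3.69 and 4.56), Bcl11a and Sp8 (4.38-fold, on 1 of its 2 passing probes) were lower by less. Lhx2 read 3.77 in midbrain, above ventral telencephalon (3.31) but below cortex (5.68) and hippocampus (6.15). Six3, a forebrain homeobox gene, read 1.28 in midbrain and 1.68 in ventral telencephalon, against -3.65 in cortex and -3.57 in hippocampus.

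Pallial factors and neuron genes were lower in 15 of 30 cases and higher in 0, with a median difference of -2.14. Tbr1, a T-box factor of early cortical neurons, read -1.67 in midbrain against 5.71, 4.65 and 5.51, an 80.2-fold gap. Emx1, the homeobox gene of the dorsal pallium, was 17.6-fold lower (-4.44 against 1.93, 2.39 and -0.31), and Neurod6, a marker of pallial glutamatergic neurons, 17.3-fold lower (-0.63 against 5.40, 4.37 and 3.48). Neurod2, Zbtb18, Bhlhe22 and Neurog2 were also lower, by 8.40-fold, 4.85-fold, 4.90-fold and 2.20-fold. The summed signal of the list was 6.01 in midbrain, 8.94 in both cortex and hippocampus, and 7.65 in ventral telencephalon, so the last lay between midbrain and the pallial tissues. Emx2 did not follow Emx1: midbrain (-0.38) lay between ventral telencephalon (-0.72) and cortex (0.08).

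The subpallial list was split by gene rather than as a whole. Of 30 measured, 8 were lower in midbrain, 0 were higher and the median difference was -0.36. The DLX homeobox genes, which direct GABAergic fate in the subpallium, accounted for 4 of the 8. Dlx2 read -5.44 in midbrain against 2.32, 1.69 and 3.87 (140-fold), Dlx1 was at least 151-fold lower, Dlx5 12.4-fold and Dlx6 at least 2.18-fold. Their antisense and opposite-strand partners Dlx1as (at least 13.5-fold) and Dlx6os1 (at least 52.1-fold) were lower with them. Sp9 and Gsx2, both used by subpallial progenitors or young interneurons, were lower by 2.42-fold and at least 2.18-fold, Gsx2 on 1 of its 2 passing probes.

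Genes of mature subpallial neurons did not follow the DLX genes. The peptide genes Tac1 (3.37 in midbrain, 3.63 in ventral telencephalon, -3.15 in cortex and -2.66 in hippocampus) and Penk (2.68 and 2.83 against -1.53 and -0.90) were high in both midbrain and ventral telencephalon. Lhx6, a marker of migrating interneurons, read 3.23, 3.70, 3.17 and 3.50 in midbrain, cortex, hippocampus and ventral telencephalon. Lhx8 and Nkx2-1, which mark the ventral-most subpallium, were well above background in ventral telencephalon alone, at 2.91 and 0.55. They were not counted because cortex and hippocampus were dim as well.

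The vesicular glutamate transporter genes lay on both sides. Slc17a6 (VGLUT2), used by most subcortical glutamatergic neurons, was 3.46-fold higher in midbrain (3.55 against 1.44, 1.60 and 1.76). Slc17a7 (VGLUT1), used by cortical and hippocampal neurons, was 13.6-fold lower (-5.94 against -1.81, -1.47 and -2.17). Slc17a8 (VGLUT3), found in scattered neurons of several classes, was 2.36-fold higher (-3.55 against -8.03, -4.79 and -5.81), with only hippocampus well above background in the telencephalon. The glycine transporter gene Slc6a9 was 2.13-fold higher (4.13 against 0.98, 1.21 and 3.04). In all, 4 of 16 transmitter genes measured were higher and 1 was lower.

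**Figure D5:**
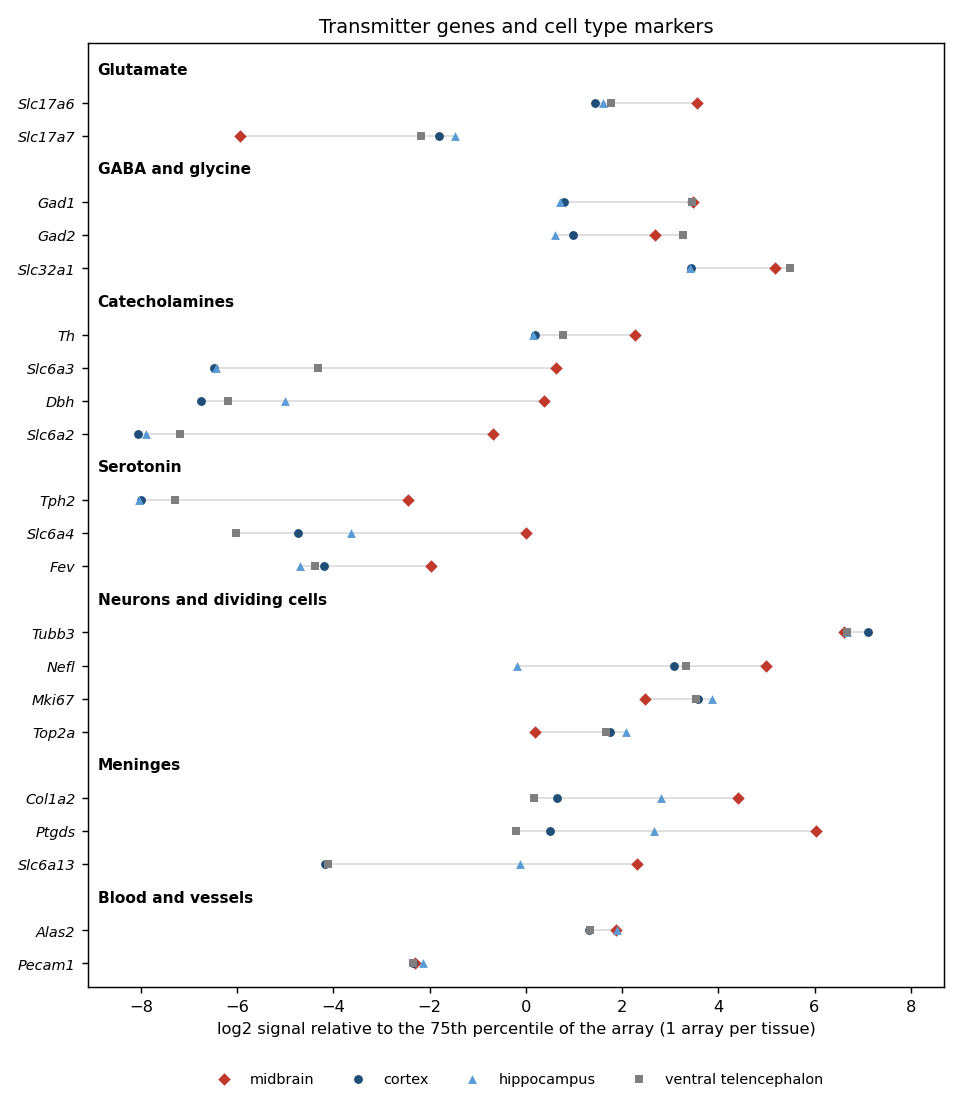
Value of transmitter genes and of cell type markers on each of the 4 arrays, as log2 signal relative to the 75th percentile of the array; each row is a gene and the grey line spans its 4 values. Midbrain is highest for Slc17a6, the catecholamine and serotonin genes and the meningeal genes, lowest for Slc17a7, Mki67 and Top2a, beside ventral telencephalon for Gad1, and within the telencephalic range or close to it for Tubb3, Alas2 and Pecam1.

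Receptors and peptides added further midbrain genes. Of 38 glutamate, GABA and glycine receptor subunits measured, 7 were higher and 0 lower, among them Grin2d (2.55-fold), Grin2a (2.70-fold, on 1 of its 2 passing probes) and Grm8 (2.31-fold). The AMPA receptor genes Gria1 to Gria4 were not counted, with Gria1 at 0.83 in midbrain against 1.16, 1.77 and 1.74. Among 28 neuropeptide genes, 7 were higher, including Cartpt (10.6-fold), Calca (8.60-fold) and Pnoc (2.28-fold), and 1 was lower, Tac2 (2.86-fold). Of Calca's 2 passing probes, 1 was counted.

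Genes of dividing cells were lower in the midbrain. Of 25 proliferation genes measured, 12 were lower and 0 higher, with 24 of 25 below the telencephalic mean and a median difference of -1.26. Mki67, the antigen used to mark cycling cells, read 2.48 in midbrain against 3.57, 3.87 and 3.55, a 2.09-fold gap, and both of its passing probes were counted. Top2a, the topoisomerase of replicating DNA, was 2.79-fold lower (0.18 against 1.74, 2.09 and 1.66), and Ccnb1, a mitotic cyclin, 2.27-fold lower on all 3 of its probes. The gaps were small and many lay near the limit: under other scalings of the arrays 7 to 16 of the 25 genes were counted, 20 without the ventral telencephalon array, and 0 at a 4-fold limit. Ccnd1, a cyclin of early G1, read 2.15 in midbrain against 2.01, 2.14 and 2.50.

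Replication-dependent histone genes, a family picked out after its values were seen, had the same direction. Of 43 measured, 20 were lower in midbrain and 0 higher, and 41 lay below the telencephalic mean, with a median difference of -1.26. They formed long runs of neighbouring lower genes, with 7 genes at chr13:23626113-23855947, 7 at chr13:21826989-21904019 and 5 at chr3:96024378-96074115 (mm9). The copies are nearly identical in sequence, so that probes of different copies may read the same transcripts and the count is not one of independent genes. H2ac4 read 3.62 in midbrain against 5.96, 5.56 and 5.40.

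Markers of neurons in general were mostly not counted. Of 25 pan-neuronal and synaptic genes 2 were higher (8%) and 0 lower, with a median difference of 0.38. That share is near the 5.58% of all named genes that were higher. Tubb3, the neuronal tubulin, read 6.61 in midbrain against 7.11, 6.66 and 6.68, and Dcx, a protein of migrating neurons, 4.79 against 5.25, 5.14 and 5.16. The 2 exceptions were neurofilaments, which accumulate in large axons: Nefl (4.99 against 3.09, -0.19 and 3.32) and Nefh (1.33 against -2.09, -3.25 and -0.75). Of 21 radial glial and astrocyte genes 2 were higher (9.52%, also near the 5.58% of named genes) and 0 lower, with a median difference of 0.21. Fabp7, a radial glial fatty acid carrier, read 7.01 against 6.88, 6.68 and 6.78. The 2 counted members, S100b (4.34-fold) and Aqp4 (2.46-fold), are genes of maturing glia.

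Among guidance genes, 4 of 21 ephrins and Eph receptors were lower and 1 was higher, where 1.43% of named genes were lower and 5.58% higher. The list as a whole did not lean: its median difference was -0.06, with 9 members above the telencephalic mean and 12 below. Efna5, a repellent ligand of the tectum and midbrain, was 2.83-fold higher (2.81 against 0.40, 0.22 and 1.31). Epha3 (3.56-fold; -0.60 against 2.18, 1.24 and 1.66), Efnb2 (2.78-fold), Epha4 (2.14-fold) and Efnb1 (2.01-fold) were lower. Of 32 slits, netrins, semaphorins and their receptors, Sema6a was higher (2.03-fold), and Plxna2 (3.41-fold) and Sema3c (2.76-fold) were lower. Dcc, the netrin receptor, read 6.49, 6.48, 6.45 and 6.32 in midbrain, cortex, hippocampus and ventral telencephalon.

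Signalling families differed ligand by ligand. Of 43 WNT pathway genes measured 5 were higher, among them Wnt6 (6.10-fold), Wnt3 (3.60-fold) and the receptor gene Fzd10 (3.36-fold), and 3 were lower, Wnt7b (3.00-fold), the R-spondin gene Rspo3 (2.91-fold) and Wnt7a (2.25-fold). Retinoid genes were higher in 5 of 17 cases and lower in 0, including the synthetic enzyme Aldh1a2 (4.17-fold, with hippocampus nearest at -1.06) and the degrading enzyme Cyp26b1 (3.39-fold). Aldh1a2 is also on the meningeal list, whose summed signal was highest in midbrain, and the part of the meninges in its reading was not tested. The same holds for Igf2 (4.91-fold), a growth factor gene on the meningeal list. Of 13 microglia and macrophage genes 1 was counted as higher (7.69%, near the 5.58% of named genes), the mannose receptor gene Mrc1 (4.23-fold).

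Some of the largest gaps were in genes outside the lists described above. Fam241a read 7.74 in midbrain against -0.99 in hippocampus and -0.53 in ventral telencephalon, its nearest array, a 308-fold gap on a single probe. Sncg, a synuclein of peripheral and brainstem neurons, was 35.7-fold higher (2.48 against -2.68, -2.78 and -2.92), and Esrrb, an orphan nuclear receptor gene, 23.4-fold (2.03 against -2.68, -3.40 and -2.51). Evx1, a homeobox gene of spinal and brainstem interneurons, was at least 28.1-fold higher. Pitx1, which is on a list of pituitary genes, was at least 30.1-fold higher. On the lower side Tiam2 was 29.5-fold lower (-1.60 against 5.26, 4.10 and 3.28) and Mpped1 11.9-fold (1.52 against 6.50, 5.10 and 5.26). Dct, a melanin enzyme also found in cortical progenitors, is on a list of eye and pigment cell genes. It was 25.1-fold lower (-5.90 against 1.78, 1.83 and -1.25), and both of its probes were counted.

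Some genes that shared a direction lay side by side. With probes at most 100 kb apart, 337 of the 1400 higher transcripts with a position (24.1%) fell into 150 groups, and 90 of 316 lower ones (28.5%) into 32 groups; overlapping transcripts of the same locus are included, and the share for all measured transcripts was not computed. The higher groups included Crnde with Irx5 on chromosome 8, Hoxa2 with Hoxa3 on chromosome 6, Wnt9b with Wnt3, and the oppositely imprinted H19 and Igf2 on chromosome 7. H19 read 5.11 in midbrain against 2.53, 3.67 and 3.67. Cbln1, a secreted synaptic organizer (3.01 in midbrain, only just past the limit from ventral telencephalon, with 1.61 in cortex and 1.24 in hippocampus), lay beside Gm2694 (0.89 against -1.34, -1.63 and -0.64). Lower groups included Dlx1 with Dlx2 and Dlx5 with Dlx6.

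A few of these genes are also given for the stem cell cultures. The culture arrays lie on other slides than the embryonic ones, so their values are given only as levels. En1 was well above background on 0 of the 8 culture arrays, while En2 ranged from -2.47 to -0.31 and Gata3 from -4.80 to -2.08. Tbr1 ranged from 4.35 to 5.28 and Emx1 from -0.71 to 1.35. Neurod6, another pallial gene, ranged from -1.15 to -0.06. Dbx1 spread widely, from -6.03 to 2.04.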

How the data were processed

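Cy3-labelled cRNA was hybridised to single-colour Agilent arrays whose 60-base probes have mm9 positions. Per the file headers, Agilent's software (Feature Extraction 10.7.3.1) gave each spot an intensity, background-subtracted and detrended but not scaled between arrays; the submitters' processing notes name version 9.1 and limma. The deposited series table holds log2 values that share nearly the same quartiles on every array, so the authors had put them on a common distribution by a step not given in the sources used here; it served as an alternative. Here, log2 processed signal minus the array's 75th percentile was averaged over the spots of a probe, outlier-marked spots left out; 0 spots were saturated. A probe passed when well above background on at least 1 of the 4 arrays (40886 of 55681 did), and the passing probe with the highest mean stood for its gene. The processed signal mixes RNA abundance with probe affinity, so levels of different genes are not compared, and 1 array per tissue limits precision. Members and the 41 lists were chosen with earlier results of these data known. Named genes were 30 anchors, the 15 largest measured gaps and the 15 largest lower bounds each way, up to 6 counted members of each list each way, and the 3 genes just inside and outside each limit; further genes appear as members of a list, of a neighbouring pair or of a family and were chosen after their values were seen. No test was possible. On simulated arrays of 28171 genes the rule recovered 25 of 25 genes raised and 24 of 25 lowered by 2 log2 units, and 8 and 5 of 25 at 1 log2 unit. It counted 0 of 27971 unchanged genes. Every simulated gene was treated as well above background and was given the same normal noise, with an SD of 0.219 log2 units. Dim genes and genes of wider spread were thus not simulated, so the 0 is not a rate of false counts for the real arrays. Python 3.11.15 (numpy 2.4.6, pandas 2.3.3), R 4.3.3 and limma 3.58.1 were used. Alternatives varied scaling, background correction, probe choice, the background filter, the fold limit and the telencephalic arrays used. Some genes that the rule names are not reported here.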

Additional observations from a re-analysis of the deposited data

How the results depend on the processing

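No paired analysis was possible because each embryonic tissue has 1 array and nothing was tested. Against 1405 higher and 318 lower genes, the counts were 1165 and 481 with median scaling, 480 and 183 with normexp and quantile normalization, and 843 and 276 in the table the authors deposited. They were 491 and 297 on probes above background on all 4 arrays, and 850 and 314 with dim values raised to the lowest measured signal. A 1.5-fold limit gave 2657 and 1031, a 4-fold limit 400 and 54, and the mean of the 3 telencephalic arrays 3291 and 873. Leaving out 1 telencephalic array gave 1625 to 2727 higher and 372 to 927 lower, with the last of each range coming from the ventral telencephalon. Other scalings, probe rules and filters kept both counts within 1.5 times. Probe rules can change only genes with more than 1 passing probe, and the probes of these genes often differed. Of the 1405 higher genes 198 had 2 or more passing probes, and in 73 of these every probe was counted. Of the 318 lower genes 92 had 2 or more, with every probe counted in 45. Over the gene list counts: members of any list higher moved to 70 on probes above background everywhere, 83 at 4-fold, 259 against the mean, and 150 to 231 with an array left out; over the gene list counts: members of any list lower moved to 76 at 1.5-fold, 17 at 4-fold, 82 against the mean, and 52 to 77 with an array left out. In every setting run, 0 counted genes took the opposite direction. Of 2412 recomputed differences of 201 named genes, 1705 moved by less than the replicate spread of the cultures, 701 moved further and 6 turned, all with dim values raised, where it became -0.22 for the difference of Calcb, -0.45 for the difference of Cdh23, -0.14 for the difference of Fgf22, -0.091 for the difference of Glra3, -0.070 for the difference of Hoxb4 and -0.44 for the difference of Slc22a3. The cause of these shifts was not tested, beyond what each setting does by construction. Signal over background limits the 680 genes seen in midbrain alone.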
